A study of Arabidopsis thaliana with 23 samples.

Results

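The comparison described here is the first hour after seedlings of a pair of Arabidopsis thaliana lines were moved to dexamethasone, read as the change that both lines share. It uses 8 of the 23 arrays of the series, chosen by their labels alone: 4 arrays at 1 h and 4 at 0 h, with 2 of each from a line in which SHORT-ROOT (SHR) can be induced and 2 from a line in which SCARECROW (SCR) can be induced. The series asked how these regulators act in the root's ground tissue over time, with further arrays at 3, 6 and 12 h and 3 arrays of cortex/endodermis initial (CEI) cells, from which the ground tissue arises. RNA was amplified in a pair of cycles and hybridised to Affymetrix ATH1 arrays, and each value is a MAS5 signal, a linear brightness in arbitrary units.

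All 8 arrays came from Columbia seedlings grown for 5 days on standard medium, which carried the J0571 enhancer trap, a green fluorescent marker of the ground tissue. The 1 h seedlings were then on plates with 1 micromolar dexamethasone (Dex), a synthetic glucocorticoid that activates the inducible protein, and the 0 h seedlings had 0 h of that treatment. The promoter that drives each inducible gene, or any mutant allele in the lines, was not given in the sources used here. No array at 1 h on plates without Dex was analysed here, so Dex, the transfer itself and any difference between the media cannot be told apart. The sources disagree on the tissue, since the series description and source names give sorted J0571 cells and the protocol text gives cut roots in RNA buffer. The replicates are labelled as biological ones, and where a pair of values is given per line and time, replicate 1 comes first.

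SHR moves from the stele into the adjacent cell layer and there acts with SCR, a protein of the same GRAS family, to set up the division that separates cortex from endodermis. Cell division in the root tip needs topoisomerases and replication factors in S phase, and Aurora kinases, kinesins and the spindle checkpoint in mitosis. Plant cells that are handled, wounded or attacked are known to switch on calcium sensors, WRKY transcription factors and detoxifying enzymes within minutes to hours.

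With both lines fitted together, genes called higher at 1 h included the peroxidase Prx37, 3 UDP-glycosyltransferases and the gibberellin receptor GID1B. The transcription factors WRKY22 and WRKY6 were also among them. Genes called lower included the topoisomerase TOPII, the Aurora kinases AUR1 and AUR2 and the helicase subunit PRL. Of 15983 tested probe sets, 148 were higher at 1 h (0.926%) and 406 were lower (2.54%) at an adjusted p under 0.05, in a limma fit with line as a block. For each of these 554 probe sets (3.47%) both 1 h arrays lay on the same side of both 0 h arrays within each line. Separation within the lines thus came with every call, and where it is given for a called gene it is no further support. Irrespective of the test, 1029 probe sets (6.44%) were separated upwards and 2635 (16.5%) downwards in both lines. The median change of the called rises was 1.23 on the log2(signal + 10) scale, and that of the called falls was -0.99, against -0.07 over all tested probe sets. The rises were the more spread, from 0.68 to 3.27, and the falls ran from -0.61 to -1.87.

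Taken singly, neither line gave a call, with 0 of the 15983 probe sets in the limma fit of 4 group means. The lowest adjusted p in that fit was 0.156 on SHR arrays and 0.283 on SCR arrays. Within the SHR line alone the called rises had a median change of 1.35, and within the SCR line of 1.06. The called falls were nearly even, with medians of -0.99 on SHR arrays and -0.96 on SCR arrays. A test of the difference between the lines called 0 of the 15983 probe sets in the limma fit of 4 group means, where 575 had an unadjusted p under 0.05. Among the 554 called probe sets, 13 had an unadjusted p under 0.05 for that difference. The joint fit itself holds that count down, since a difference between the lines widens its error and makes a call less likely. With 2 arrays a group neither count shows that the lines responded alike.

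**Figure D1:**
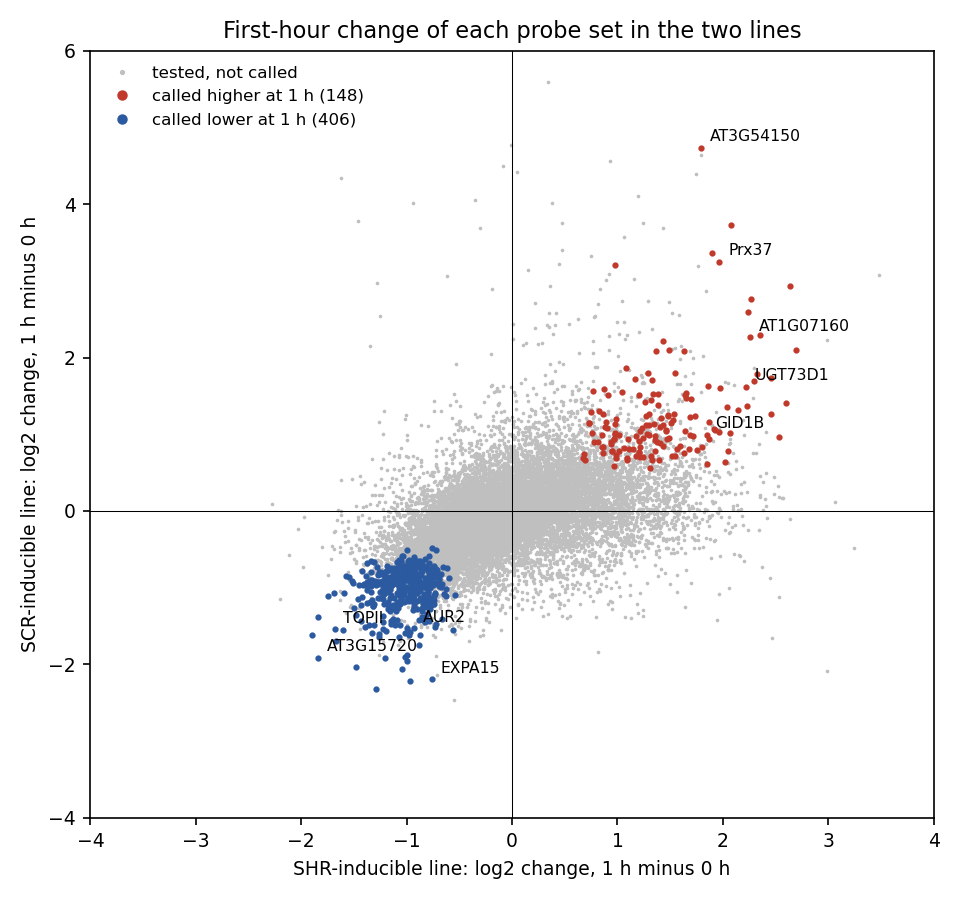
Change of each of the 15983 tested probe sets from 0 h to 1 h in log2(signal + 10), in the SHR-inducible line (horizontal axis) and the SCR-inducible line (vertical axis), each the difference of means of 2 arrays. Red points are the 148 probe sets called higher and blue points the 406 called lower with both lines together; the called rises reach further from 0 than the called falls, up to 4.74 in the SCR line for AT3G54150.

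The calls sit close to the threshold. The smallest adjusted p was 0.0398, a further 95 higher and 216 lower probe sets had an adjusted p between 0.05 and 0.06, and leaving out single arrays gave 0 calls in each direction for 6 of the 8 arrays. Without the second SHR array at 0 h the counts were 51 higher and 131 lower, and without the second SCR array at 1 h they were 493 and 1052. Pairing arrays of the same line and replicate number as a block gave 693 higher (4.34%) and 1301 lower (8.14%), which held all 148 and all 406 of the unpaired calls. With no filter on low values, with all 23 arrays in the fit, with 4 group means or without the trend in eBayes, 0 probe sets were called in either direction (1357 higher and 2726 lower had an unadjusted p under 0.05 in limma as reported).

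Gene names were limited by the probe annotation. Of the called rises 73 had a single gene, 17 of them with a name other than a locus number, and of the called falls 233 had a single gene, 23 of them with such a name. All 40 are named below, and no role is given for genes with neither a name nor a RefSeq synonym for one, apart from a marker fixed in the lists. The gene lists could be read only in small part for the same reason: 3 of 28 loci were tested on the mitosis and cytokinesis list, 2 of 20 on DNA replication, 3 of 20 on core histones, 3 of 25 on rapid stress transcription factors, 5 of 10 on touch and calcium, 5 of 23 on gibberellin, 10 of 42 on auxin response, 3 of 17 on detoxification and 3 of 11 on the SHR/SCR pathway. Their counts and medians speak for those members and not for the lists. SHR, SCR and their best known target CYCD6;1 were not named by the annotation, so induction was not checked in these arrays.

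The largest named rise was that of Prx37, a class III peroxidase of the cell wall. Its signal at 0 h was 127 and 57.4 on SHR arrays and 127 and 87.1 on SCR arrays, and at 1 h it was 449 and 297 on SHR arrays and 408 and 2851 on SCR arrays. Every 1 h array lay above every 0 h array, and the second SCR array stood far above the other 1 h arrays. The change was 2.61 (SE 0.56) on the log2 scale, with an adjusted p of 0.0447; without that second SCR array it was 1.92, adjusted p = 0.0291.

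A group of UDP-glycosyltransferases, enzymes that attach sugars to hormones, defence compounds and foreign molecules, had a median of 0.25 over the family. Of its 36 tested members 3 were called higher and 0 lower, against 0.926% and 2.54% of all tested probe sets. UGT73D1 measured 42.3 and 57.4 (SHR line) and 128 and 56.8 (SCR line) at 0 h, against 304 and 233 and then 211 and 382 at 1 h. The groups did not overlap, and the change was 1.92 (SE 0.30), adjusted p = 0.0398. UGT73B5 rose by 1.38 (SE 0.23), adjusted p = 0.0398, from 199 to 282 over the 0 h arrays to 455 to 874 over the 1 h arrays. UGT73B4, its immediate neighbour on chromosome 2, rose by 0.94 (SE 0.19), adjusted p = 0.0433, and its 1 h arrays (939 to 1530) were all above its 0 h arrays (582 to 770). UGT73B4 and UGT73B5 are close relatives, and how far their probe sets share signal was not tested. With the replicate block 5 members were called higher, against 4.34% of all tested probe sets under that block. UGT87A2, at 0.93, had an adjusted p of 0.109 unpaired and 0.034 paired.

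The gibberellin receptor GID1B had signals of 100 and 76.1 on SHR arrays and 196 and 200 on SCR arrays at 0 h. At 1 h these were 328 and 355 on SHR arrays and 358 and 458 on SCR arrays. The groups were separate across both lines, although the SHR line began lower, and the change was 1.42 (SE 0.22), adjusted p = 0.0398. Its change was 1.85 on SHR arrays and 1.00 on SCR arrays, a difference with an unadjusted p of 0.0487 and an adjusted p of 1. Of the 5 tested genes on the gibberellin list GID1B was the one called, against 0.926% called higher over all tested probe sets. SLY2, an F-box protein of gibberellin signalling, was at 0.58 with an adjusted p of 0.273, and the list's median was 0.38.

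WRKY transcription factors had 2 of 5 tested members called higher (0.926% over all tested probe sets) and 0 lower (2.54%), with a median of 0.92. WRKY22, which acts downstream of immune MAP kinases, went from 280 and 147 to 645 and 742 on SHR arrays and from 99.9 and 78.4 to 159 and 213 on SCR arrays, a change of 1.35 (SE 0.26), adjusted p = 0.0398. The lines differed in level, so that the first SCR array at 1 h was below the first SHR array at 0 h, but within each line the times did not overlap. WRKY6, a factor known from senescence and phosphate supply, rose by 0.92 (SE 0.18), adjusted p = 0.0399, from 834 to 1052 over the 0 h arrays to 1452 to 2098 over the 1 h arrays. WRKY53, a senescence regulator, stood at 1.31 with an adjusted p of 0.0685, and 0.0319 with the replicate block. The 3 tested genes of the rapid stress transcription factor list, WRKY6, WRKY53 and the zinc finger STZ (0.97, adjusted p = 0.0909, paired 0.0309), had a median of 0.97. Unpaired 1 was called and with the block all 3, against 0.926% and 4.34% of all tested probe sets called higher.

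Calcium sensors of the calmodulin and CML family had 1 of 7 tested members called, against 0.926% called higher over all tested probe sets. All 7 had a change above 0, as did 43.7% of all tested probe sets, and their median was 0.61. The called one, CML42, a calmodulin-like protein, measured 65.2 and 59.7 on SHR arrays and 206 and 78.0 on SCR arrays at 0 h, and between 219 and 270 on the 4 arrays at 1 h. The SHR arrays were the lower ones at 0 h, and at 1 h the lines stood close together. The change was 1.34 (SE 0.28), adjusted p = 0.0440. CML37 (0.94, adjusted p = 0.0562) and CML38 (0.76, adjusted p = 0.156), both listed as touch and calcium genes, were called with the replicate block, at 0.0329 and 0.0373, and not without it. The touch and calcium list as a whole had 0 of 5 tested members called unpaired, with a median of 0.76. With the block 3 were called higher, against 4.34% of all tested probe sets.

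A few single rises have known roles in plant immunity, for which no list was drawn up. PUB23, a U-box ubiquitin ligase that dampens immune responses, had signals of 1517 and 1538 on SHR arrays and 651 and 622 on SCR arrays at 0 h, which became 2972 and 2605, and 1257 and 1882, at 1 h. Replicates were tight at 0 h and the lines differed in level, with the SHR line higher at both times. PUB23 rose by 1.06 (SE 0.18), adjusted p = 0.0398. BIK1, a cytoplasmic kinase that relays signals from immune receptors, rose by 1.00 (SE 0.23), adjusted p = 0.0479, from 336 to 574 over the 0 h arrays to 653 to 1054 over the 1 h arrays. SAG101, a lipase-like partner of the immune regulator EDS1, rose by 0.99 (SE 0.18), adjusted p = 0.0398, from 43.3 to 66.6 to 108 to 134. AT2G39650, which lies next to BIK1, was also called higher, at 0.95.

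The other named rises had a range of roles. SCPL45, a serine carboxypeptidase-like protein, rose by 1.40, LPR1, a multicopper oxidase of the root's response to low phosphate, by 1.16, and SEC1B, a protein of vesicle fusion, by 0.99. HMT-1, a homocysteine methyltransferase of methionine metabolism, rose by 0.93, with 1.31 on SHR arrays and 0.56 on SCR arrays. ZCF37 rose by 1.35 and pEARLI4 by 0.81. The adjusted p of these 6 genes lay between 0.0398 and 0.0480.

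**Figure D2:**
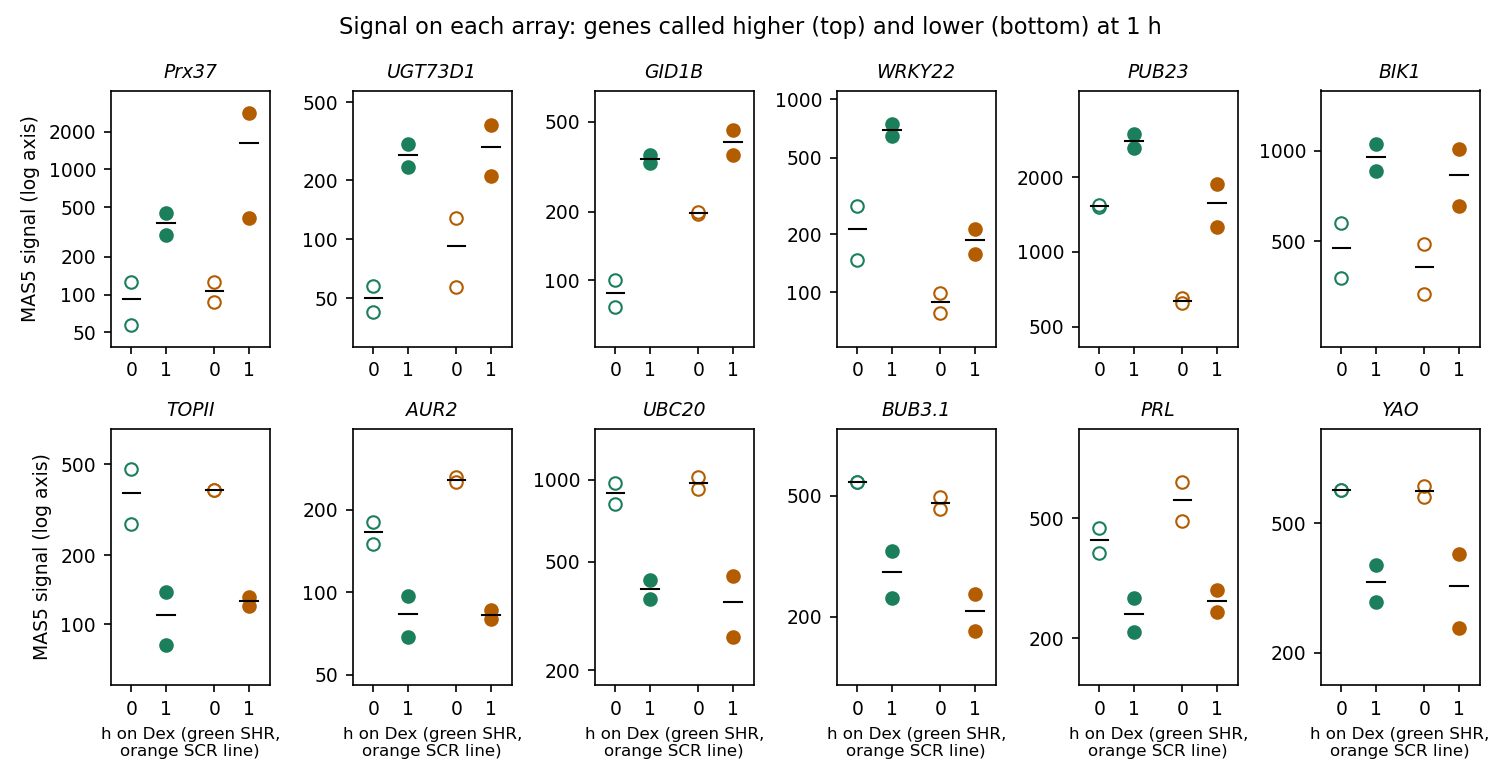
MAS5 signal on a log axis for 6 genes called higher at 1 h (top) and 6 called lower (bottom), 1 point per array; open points are 0 h and filled points 1 h, green is the SHR-inducible line and orange the SCR-inducible line, and each bar is the mean of 2 arrays. Within each line the 0 h and 1 h points do not overlap in any of the 12 panels, which held for all 554 called probe sets. In WRKY22 and PUB23 the lines sit at different levels.

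Most of the largest rises belong to genes known here only by locus. AT3G54150 had signals between 15.8 and 57.6 on the 0 h arrays, and at 1 h 272 and 137 on SHR arrays and 298 and 2779 on SCR arrays. The second SCR array at 1 h was again far above the rest, and the change of 3.27 had the widest error of the named rises (SE 0.75, adjusted p = 0.0492); without that array it was 2.34. AT3G28580 showed the same array on top, with 771 against 118 to 284 on the other 1 h arrays and 8.21 to 60.1 at 0 h, and its change was 2.90.

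The second SCR array did not stand out in every large rise. AT1G07160 rose by 2.26 (SE 0.28), adjusted p = 0.0398, from 23 and 48.4 to 281 and 141 on SHR arrays and from 3.95 and 8.30 to 68.2 and 65.4 on SCR arrays. Its change was 2.26 in each line. AT1G02360 rose by 2.1 (SE 0.25), adjusted p = 0.0398, with 1414 and 1333 on SHR arrays and 782 and 1191 on SCR arrays at 1 h, against 208 to 358 at 0 h. AT5G48430 was the called rise with the smallest paired p, 0.00581, at a change of 2.39, shared with the unnamed probe set 257382_at at 2.79.

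Of the remaining large rises with a locus, AT4G18250 rose by 2.63, AT5G39580 by 2.32, AT4G15975 by 2.09, AT1G60730 by 2.06, AT2G43620 by 2.00, AT2G16660 and AT2G43140 by 1.86 each and AT5G52750 by 1.79. AT4G15975 was the most uneven between the lines, at 0.97 on SHR arrays and 3.2 on SCR arrays, with an unadjusted p of 0.00418 and an adjusted p of 1 for the difference. Several of these started from dim signals: AT4G18250 was between 0.936 and 2.76 on all 4 arrays at 0 h, where the added 10 holds down the fold, and it reached 18.4 to 246 at 1 h. It passed the filter on low values through 3 of the 1 h arrays and 0 of all others, so a difference was bound to appear, and its call is no support for the rise. Of the 148 called rises it was the 1 of that kind, and 0 of the called falls were. With a filter on the mean AT4G18250 and AT2G43140 were not tested. With a pseudocount of 1 its change was 4.46, and with 50 it was 1.22 with an adjusted p of 0.0751. A pseudocount of 50 also lowered the change of other dim genes by over 1.5 times, with AT1G07160 at 1.31, AT4G15975 at 1.17, AT1G60730 at 1.22, AT2G43140 at 0.91, SEC1B at 0.65 and 257382_at at 1.63, and these stayed called. AT3G54150 (2.51, adjusted p = 0.062) and Prx37 (2.24, 0.05) lost their call at that pseudocount. At a pseudocount of 1 AT4G15975 (adjusted p = 0.0501), AT2G43620 (0.0504), AT2G43140 (0.0507) and SEC1B (0.0501) did. The probe set 254331_s_at, which has no gene in the annotation and can bind transcripts of more than a single gene, rose by 2.51. Its signal was 8589 on the second SCR array at 1 h, against 2018 to 3636 on the other 1 h arrays. That array was also the highest for AT4G18250 and AT5G39580. Without it the changes were 2.05 for 254331_s_at, 2.02 for AT4G18250 and 1.98 for AT5G39580.

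TOPII, the topoisomerase that untangles replicated DNA, measured 478 and 275 on SHR arrays and 385 and 387 on SCR arrays at 0 h, and 138, 81.3, 120 and 132 at 1 h. The lowest 0 h array was above the highest 1 h array across both lines. The fall of TOPII was -1.61 (SE 0.23), adjusted p = 0.0398, with -1.68 on SHR arrays and -1.54 on SCR arrays.

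Both Aurora kinases that act on the spindle and the cell plate were called lower. AUR1 went from 319 and 260 to 109 and 150 on SHR arrays and from 279 and 263 to 96.1 and 124 on SCR arrays, a change of -1.17 (SE 0.18), adjusted p = 0.0398. AUR2 went from 181 and 150 to 68.7 and 97.1 and from 264 and 252 to 79.8 and 85.9, a change of -1.23 (SE 0.20), adjusted p = 0.0398. For both genes the 4 arrays at 1 h lay together below the 4 at 0 h. AUR3, the centromeric member, was at -0.72 with an adjusted p of 0.0808 (0.0557 paired). Together the mitosis and cytokinesis list had 2 of 3 tested members called lower (2.54% over all tested probe sets), 0 higher, and a median of -1.17.

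Further called falls act in mitosis or in building the new cell wall. UBC20, the ubiquitin-conjugating enzyme that works in mitosis, went from 818 and 971 to 366 and 430 on SHR arrays and from 925 and 1028 to 265 and 445 on SCR arrays, a fall with a change of -1.31 (SE 0.21), adjusted p = 0.0398. BUB3.1, a spindle checkpoint protein, went from 555 and 554 to 330 and 230 and from 453 and 494 to 179 and 238, a change of -1.07 (SE 0.19), adjusted p = 0.0398. Both kept 0 h and 1 h apart across the lines. Haspin, a kinase of histone H3 in mitosis, changed by -1.38, and the HMG-box proteins 3xHMG-box2 and 3xHMG-box1, which bind mitotic chromosomes, by -1.46 and -1.15. FU, a kinase of the phragmoplast, and KINESIN-12B, a motor at the phragmoplast midline, changed by -1.21 and -1.20. Outside that group, IQD16, a calmodulin-binding protein of the IQ67-domain family, had the largest fall among the named genes, -1.76 (SE 0.29), adjusted p = 0.0398, from 120 to 333 at 0 h to 41.2 to 83.7 at 1 h.

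PRL, the MCM7 subunit of the replicative helicase, measured 463 and 382 on SHR arrays and 659 and 489 on SCR arrays at 0 h, and 210, 271, 244 and 289 at 1 h. All arrays at 1 h were lower than all at 0 h, and the change was -0.93 (SE 0.19), adjusted p = 0.0433. POLA3, a primase subunit, changed by -0.91 (SE 0.18), adjusted p = 0.0423, and ICU2, the catalytic subunit of DNA polymerase alpha, stood at -0.91 with an adjusted p of 0.0506 (0.0338 paired). PRL and ICU2 were the tested members of the DNA replication list, whose median was -0.92. The 3 tested core histone genes had a median of -0.55 and 0 calls, where 2.54% of all tested probe sets were called lower. HTB1 was at -0.55 (adjusted p = 0.0917, paired 0.0466), HTB2 at -0.74 and HTB4 at -0.42.

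Other called falls were single genes of no tested list. YAO, a nucleolar protein of ribosomal RNA processing, had signals of 633 and 634 on SHR arrays and 601 and 651 on SCR arrays at 0 h. At 1 h it had 286 and 372 on SHR arrays and 239 and 402 on SCR arrays. The 4 arrays at 0 h lay within a narrow range, all above the 1 h arrays, and the change was -0.96 (SE 0.20), adjusted p = 0.0440. RRP41, a core subunit of the RNA exosome, changed by -0.79 (SE 0.17), adjusted p = 0.0454, with 725 to 969 at 0 h and 400 to 636 at 1 h. AT1G13030, which RefSeq lists as coilin, the scaffold of Cajal bodies in the nucleus, was called lower at -0.91. RAP, a protein of ribosomal RNA maturation in chloroplasts, changed by -1.15, and the plastid chaperonin subunit Cpn60beta3 by -0.75. The ribosome biogenesis list had 0 tested members, and no change of that group can be read from these genes.

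EXPA15, an expansin that loosens cell walls, was lower at 1 h in both lines, by the larger step in the SCR line. Its signals were 136 and 125 on SHR arrays and 172 and 274 on SCR arrays at 0 h, and 69.7 and 76.4, and 37.1 and 43.0, at 1 h. The SCR line was the higher at 0 h and the lower at 1 h. The joint change was -1.47 (SE 0.30), adjusted p = 0.0433, with -0.76 on SHR arrays and -2.19 on SCR arrays; that difference had an unadjusted p of 0.00812 and an adjusted p of 1. EXPA15 was 1 of 9 tested expansins, the others uncalled (2.54% of all tested probe sets were called lower), with a family median of 0.27.

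Of the glutathione S-transferases, which conjugate glutathione to reactive compounds, 1 of 10 tested was called, against 2.54% called lower over all tested probe sets. The called member fell: ATGSTF13, at -1.56 (SE 0.34), adjusted p = 0.0454. Its family had a median of 0.32. GSTU27 (1.15, adjusted p = 0.0506) and GSTU25 (0.84, adjusted p = 0.0814) were called higher with the replicate block, as were 4.34% of all tested probe sets. The detoxification list, which shares ATGSTF13, had 3 tested members and a median of 0.01.

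The last named falls were VPS2.2, a protein related to the ESCRT membrane-sorting complexes, at -1.03, RBL, known as REBELOTE from floral meristems, at -0.96, the peptide gene RALFL24 at -0.96, and MOL1, a receptor-like kinase that limits cambium activity, at -0.80. Their adjusted p lay between 0.0433 and 0.0480. Under quantile normalization MOL1 (adjusted p = 0.0524) and RALFL24 (0.0606) lost their call, and RALFL24 also at a pseudocount of 50 (0.0503). Among falls known here only by locus, AT3G15720 was the largest, from 271 and 216 to 66.0 and 55.6 on SHR arrays and from 553 and 357 to 129 and 95.0 on SCR arrays. Its change was -1.87 (SE 0.20), adjusted p = 0.0398, nearly the same on SHR arrays (-1.84) and on SCR arrays (-1.91). AT5G40320 (-1.75), AT5G62550 (-1.61), AT3G03130 (-1.47), AT4G15830 (-1.46), AT5G60930 (-1.45), AT5G08180, AT2G28620 and AT5G08600 (-1.43 each) and AT5G15510 (-1.42) followed. The probe sets 253480_at (-1.80) and 262802_at (-1.68) have no gene in the annotation. A pseudocount of 50 put AT5G08600 at -0.95, AT5G15510 at -0.90, KINESIN-12B at -0.79 and Haspin at -0.88, all still called.

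**Figure D3:**
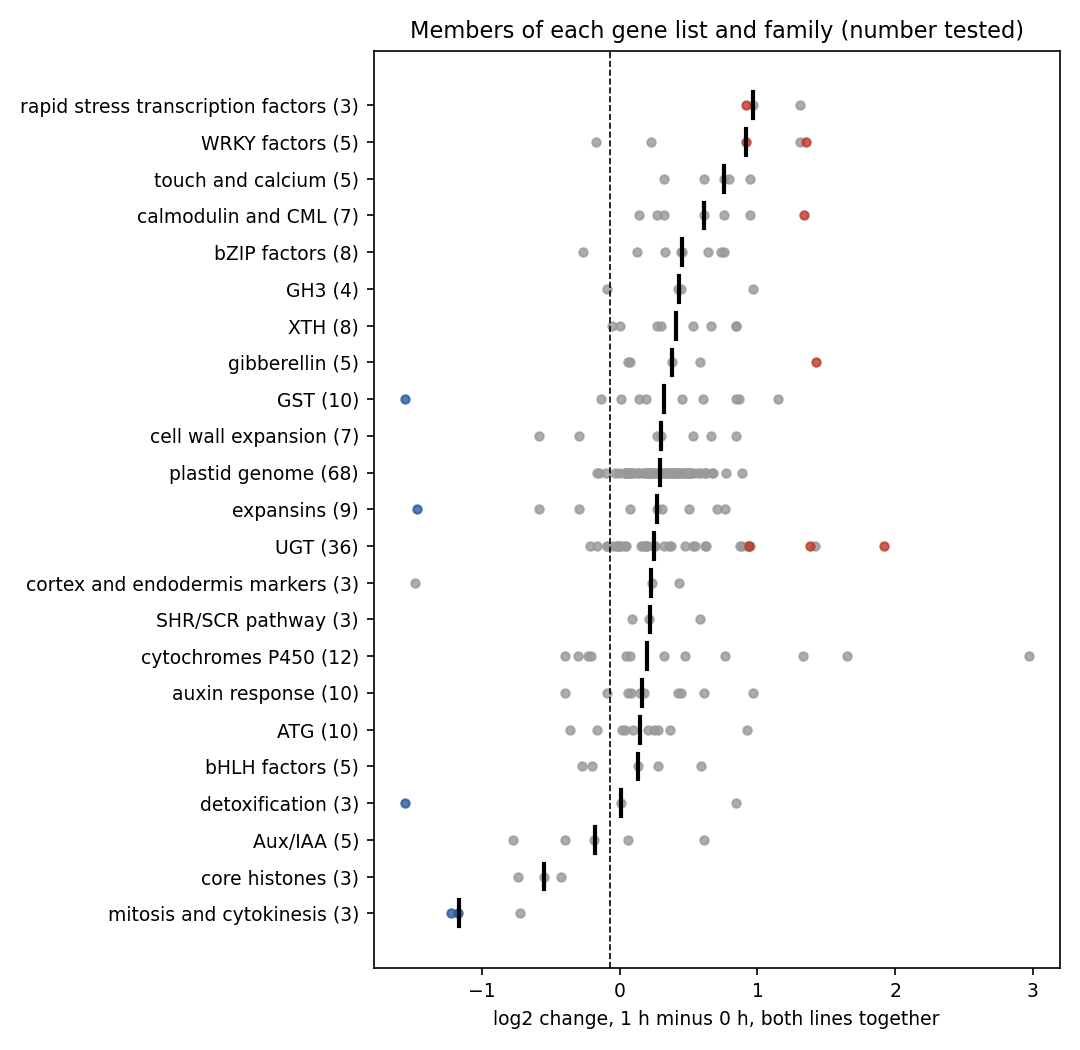
Change from 0 h to 1 h, in log2(signal + 10) with both lines together, of each tested member of the gene lists and families with at least 3 tested members; red points were called higher, blue points lower and grey points were not called. Black bars mark each set's median and the dashed line the median of all tested probe sets, -0.07; mitosis and cytokinesis is at the bottom at -1.17 and the rapid stress transcription factors at the top at 0.97.

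Other groups of genes held no call. Since 3.47% of all tested probe sets were called either way, a count of 0 in a set of 8 to 12 says little. The bZIP transcription factors had 0 of 8 tested members called and a median of 0.45. With the block 3 of them were called higher (BZIP60, BZIP53 and bZIP19), against 4.34% of all tested probe sets. The XTH wall enzymes had 0 of 8 called and a median of 0.41. The autophagy genes had 0 of 10 called, with ATG8E called higher under the block, and a median of 0.15. Cytochromes P450 had 0 of 12 called and a median of 0.20, but their changes ran from -0.40 to 2.97, with 4 below 0. The highest, CYP71B22 (adjusted p = 0.154), was at 0.34 on SHR arrays and 5.59 on SCR arrays. Its SCR signals were 2.76 and 80.1 at 0 h and 415 and 6293 at 1 h, so the second SCR array again stood far above the rest. The auxin response list had 0 of 10 called and a median of 0.16, at 0.47 on SHR arrays and -0.19 on SCR arrays. Its member GH3.3, an enzyme that conjugates auxin and a usual early auxin target, was at 2.12 on SHR arrays and -0.18 on SCR arrays, with an adjusted p of 0.33 for the joint change. That difference had an unadjusted p of 0.0399 in limma and was not called. The SHR arrays measured 1607 and 282 at 0 h, where the second was low, and 3859 and 2288 at 1 h. Genes of the plastid genome had 0 of 68 called, and their median was 0.59 on SHR arrays and 0.02 on SCR arrays. In the joint fit 63 of the 68 had a change above 0, as did 43.7% of all tested probe sets.

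The SHR and SCR pathway itself was thinly covered. JKD, a zinc finger partner of SHR and SCR in the ground tissue, had signals of 208 and 78.8 on SHR arrays and 131 and 187 on SCR arrays at 0 h, and 215 and 105, and 151 and 224, at 1 h. The times overlapped in both lines, and the change was 0.22 (adjusted p = 0.721). AT5G41920, which RefSeq lists as SCARECROW-LIKE 23, was at 0.09 (adjusted p = 0.798). With SLY2 these were the 3 tested members of that list, and 0 were called (3.47% of all tested probe sets were called either way).

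Among the listed markers of cortex and endodermis, of which 3 of 12 were tested, AT1G62500, the cortex marker CO2, was the one that moved most. It measured 1230 and 210 on SHR arrays and 690 and 1176 on SCR arrays at 0 h, and 255 and 129, and 240 and 387, at 1 h. The times overlapped in the SHR line, where the second array was low at 0 h, and not in the SCR line. The change was -1.49, with an adjusted p of 0.102 unpaired and 0.0202 with the replicate block. GSO1, a receptor kinase of the endodermal barrier, was at 0.43 (adjusted p = 0.479), and the third tested marker of cortex and endodermis lay between them. The stele marker LHW, the 1 tested of 11 listed, had signals from 308 to 723 over the 8 arrays. Its change was -0.27 (adjusted p = 0.555). Of 9 listed epidermis markers 2 were tested and 0 called (3.47% over all tested probe sets), with a median of 1.33 on SHR arrays and -0.56 on SCR arrays. The times overlapped in the SHR line for both, where the first array was low at 0 h. The first SHR array went from 23.5 to 230 for one marker and from 11.6 to 199 for the other. The second went down, from 248 to 172 and from 172 to 141. From the root cap list 0 markers were tested. In these bulk samples fewer cells of a type and less RNA per cell cannot be told apart, and the part of cell composition in the falls was not tested.

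Starting levels are description only, since the 0 h arrays also made the calls and favour a high start for falls and a low one for rises. The probe sets called lower had a median of 8.58 in log2(signal + 10) at 0 h, those called higher 7.58, and all tested probe sets 7.36. At 1 h the order was reversed, with array medians of 8.61 to 9.02 for the rises and 7.43 to 7.83 for the falls. On the chromosomes, 3066 pairs of neighbouring genes had both members tested, and 2 pairs were both called higher (UGT73B5 with UGT73B4, and AT2G39650 with BIK1) and 3 both lower (AT3G51270 with AT3G51280, AT4G05400 with YAO, and AT5G15510 with AT5G15520). No pair (0) was called in opposite directions. Over the 8771 tested loci 0.832% were called higher and 2.62% lower.

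The later arrays show where these genes stood after the first hour, as levels and with no test, since 0 h is shared by every time and also fixed the calls. The median level of the called rises was 7.61 and 7.22 on the SHR arrays at 0 h, 8.98 and 8.61 at 1 h, 8.66 and 7.52 at 3 h, 7.89 and 7.51 at 6 h and 7.62 and 7.25 at 12 h. In the SCR line it was 7.79 and 7.64 at 0 h, 8.72 and 9.02 at 1 h, 8.71 and 8.05 at 3 h, 8.64 and 7.84 at 6 h and 8.53 and 9.0 at 12 h. At 12 h the SHR arrays were close to their 0 h arrays, while both SCR arrays lay above theirs. The CEI arrays, at 6.56 to 6.62, were below every time-course array.

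The called falls had median levels of 8.64 and 8.44 at 0 h, 7.43 and 7.66 at 1 h, 8.33 and 8.71 at 3 h, 8.96 and 9.0 at 6 h and 9.08 and 9.35 at 12 h in the SHR line. In the SCR line the values were 8.68 and 8.67, 7.46 and 7.83, 7.90 and 8.83, 6.79 and 8.93, and 8.34 and 8.02 at the same times. From 6 h the SHR arrays stood above their 0 h level; both SCR arrays at 12 h were below theirs, and the first SCR array at 6 h was the lowest of all 23. CEI arrays lay at 9.37 to 9.69, above all others. The median over all tested probe sets stayed between 7.21 and 7.54 on the 23 arrays.

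**Figure D4:**
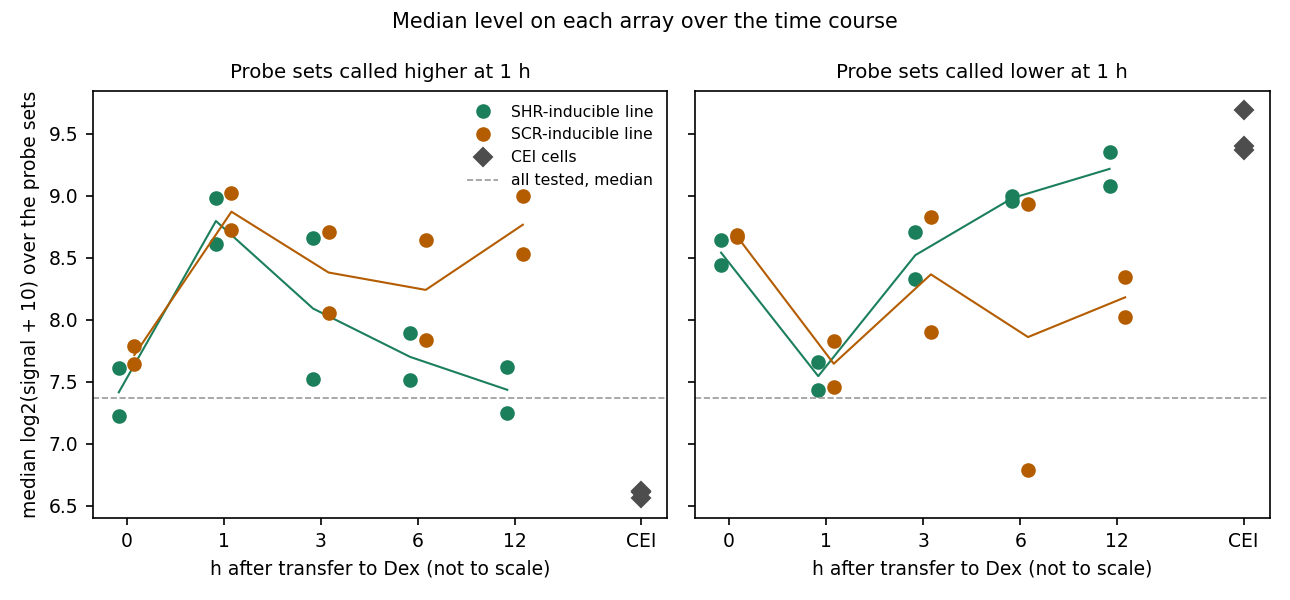
Median log2(signal + 10) over the 148 probe sets called higher at 1 h (left) and the 406 called lower (right) on each of the 23 arrays; points are arrays, lines join the means of the 2 arrays at each time, and diamonds are the 3 CEI arrays. The rises are back near their 0 h level at 12 h on SHR arrays and not on SCR arrays, and the falls end above it on SHR arrays; the 0 h and 1 h arrays chose the probe sets.

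Single genes show how far the sets hold together. AUR2 had mean signals of 165, 82.9, 191, 405 and 441 at 0, 1, 3, 6 and 12 h on SHR arrays and 258, 82.8, 226, 241 and 217 on SCR arrays, with 557 ± 79.3 (SD, n = 3) in CEI cells. YAO had 634, 329, 687, 942 and 1102 on SHR arrays and 626, 320, 463, 414 and 438 on SCR arrays, with 1592 ± 354 in CEI cells. In both genes the 3 h mean was above the 1 h mean in each line.

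Among the rises, UGT73D1 had means of 49.8, 269, 105, 47.5 and 31.1 on SHR arrays and 92.2, 297, 192, 130 and 548 on SCR arrays. GID1B had 88.2, 342, 175, 144 and 95.8 on SHR arrays and 198, 408, 302, 279 and 403 on SCR arrays. At 12 h both means were well below their 1 h level in the SHR line, whereas the SCR line was near or above it. Prx37 differed from them, with 420 on SHR arrays and 804 on SCR arrays at 12 h and 743 ± 80.4 in CEI cells, all above the 0 h means of 92.2 and 107.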

How the data were processed

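The deposited table holds 22810 probe sets of the ATH1 array on 23 arrays as signal intensities on a linear scale, which the authors made with MAS5, per the submitters' processing notes. Its version was not given in the sources used here, nor were detection calls or filters. Values were taken as log2(signal + 10) and not normalized further. After 64 controls were set aside, a probe set was tested when its signal was above the 40th percentile of its array on at least 2 of the 23 arrays, which left 15983. The median signal of the 8 arrays at 0 h and 1 h ran from 65.1 to 74.7 and their pairwise correlations from 0.861 to 0.962. The number of arrays limits the precision; the median standard error was 0.24 (log2).

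The 8 arrays were fitted with limma 3.58.1 in R 4.3.3 (lmFit, eBayes with trend), with terms for line and time and 5 residual degrees of freedom, and p-values (two-sided) were adjusted by Benjamini-Hochberg over the 15983 at a threshold of 0.05. Changes within each line and their difference came from a fit of the 4 group means. The fits were run on simulated data with independent noise on each array. That noise lacks the shared deviations described next, so the run is no support for the calls. Arrays with the same line and replicate number deviated together between 0 h and 1 h (correlation 0.51 on SHR arrays and 0.31 on SCR arrays), so the fit with that block is printed where it changes a call; the pairing comes from the data and the shared numbers, not from a statement in the labels.

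The annotation supplied for the probe sets gave 1 gene for 13513, several for 503 and did not list 8730; names were updated through RefSeq (TAIR10.1) for 13436. Named genes were the 15 largest called changes in each direction with 1 gene, up to 4 members of each gene list or family by smallest p, the 2 largest in each direction without a gene, and all tested members of the SHR/SCR list. Every called gene that carries a name was added after values were seen. Members, lists and families were chosen with earlier results of these data known. List members with changes near 0, and some other uncalled members, are given by counts and medians. Alternatives covered the pseudocount, the filter, quantile normalization, all 23 arrays, the replicate block, eBayes without trend, array weights and leaving out each array.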

Additional observations from a re-analysis of the deposited data

How the results depend on the processing

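The counts at an adjusted p under 0.05, 148 higher, 406 lower and 554 moving the same way in both lines, depend on the fit. They became 0, 0 and 0 with no filter on low values, with all 23 arrays in 11 group means and with eBayes without trend. They became 693, 1301 and 1649 with the replicate block and 454, 1295 and 1556 with array weights. Under the block 1224 probe sets were called within the SHR line and 15 within the SCR line, against 0 and 0 unpaired, where 3135 and 1645 had an unadjusted p under 0.05 in limma. Leaving out each array in turn gave 0 to 493 higher, 0 to 1052 lower and 0 to 1544 shared, 0 to 52 within the SCR line and 0 to 3 for the difference between the lines. The 52 and the 3 were without the first SCR array at 1 h. Pseudocounts of 1 and 50, a filter on the mean and quantile normalization kept each count within 1.5 times. The mean filter left 5 of the called rises and 3 of the called falls untested, AT4G18250 and AT2G43140 among the rises. Alternatives chosen after seeing the data gave 0, 0 and 0 for 4 group means on the 8 arrays (lowest adjusted p 0.059) and 580, 1381 and 1848 at an adjusted p under 0.1. With the replicate block and a pair left out, the counts were 0, 0 and 0 without SHR pair 1, 245, 513 and 738 without SHR pair 2, 108, 11 and 116 without SCR pair 1, and 958, 1155 and 1999 without SCR pair 2. Rises were 26.7% of the calls unpaired, 34.8% with the block and 90.8% of those left without SCR pair 1. The causes were not tested. The next counts leave out CYP71B22. Among the other genes named in the text, JKD changed sign, to -0.08 with array weights and -0.04 without the second SHR array at 0 h (-0.04 to 0.48 over the arrays left out). None of the rest did so (0). Of the 2068 values for these named genes under an alternative, 836 lost a call and 65 gained one. The 2068 include genes with no call as reported, which could not lose one, so the share lost among called genes was larger.

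The limits are 2 arrays a group, no transfer to plates without Dex, a tissue on which the sources disagree, and an annotation that names 1 gene for 8850 of the 15983 tested probe sets.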
